A study of Meleagris gallopavo with 12 samples.

Results

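Receptors for neuropeptides and pituitary hormones were examined in the turkey hen's premammillary nucleus, a cell group of the mediobasal hypothalamus whose neurones hold dopamine and melatonin and take part in timing breeding by day length. A probe was taken when its ID began with RIGG (the chicken oligonucleotides of the array) and its description held the word receptor together with the name of a neuropeptide, a releasing, stimulating or growth hormone, vasopressin, vasotocin, oxytocin, somatostatin, an opioid, melanocortin, orexin or hypocretin, cholecystokinin, tachykinin, bradykinin or neurotensin. This gave 39 of 20460 probes, which stood for 38 genes or locus numbers because GHRHR had a pair of probes. No description with vasotocin or neurotensin also held the word receptor. The rule reads names and no measured values.

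The study asked how this nucleus differs between photosensitive hens, in which long days can start breeding, and photorefractory hens, in which they no longer do. All birds were adult females, and each sample was total RNA from the pooled premammillary tissue of 6 hens. The short-day photosensitive group (SDPS) was kept on 6 h of light and 18 h of dark. The long-day photosensitive group (LDPS) was moved to 16 h of light and 8 h of dark for 10 days. The long-day photorefractory group (LDPR) was held on long days through a whole reproductive cycle and moult, with hours of light that the sources used here do not give. LDPR and LDPS hens thus differed in their time on long days and in reproductive history as well as in photorefractoriness, and no short-day photorefractory group entered the comparisons. Each group had 4 pools. The 12 pools were paired on 6 arrays with 2 dyes (Alexa Fluor 555 and 647), 2 arrays for each pair of groups with the dyes reversed.

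Peptide hormone receptors mostly sit in the cell membrane and act through G proteins. Receptors coupled to Gs raise cyclic AMP, those coupled to Gi lower it, and those coupled to Gq release calcium through phospholipase C. The growth hormone receptor differs in being a cytokine-type receptor that signals through JAK and STAT proteins. In the hypothalamus such receptors let local peptides and circulating hormones set the activity of neurones that control the pituitary, feeding and reproduction. Because whole pools of tissue were measured, fewer cells of a type and less RNA per cell cannot be told apart, and RNA in the tissue does not measure receptor protein or the receptors' response.

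The channels' median amplitude ran from 92.7 to 277, and 12 of 12 channels held the probes of the nucleus's own markers TH, ASMT and OPN4 above the empty-spot level, the 95th percentile of spots that carry no probe. The other 3 markers of that list (TPH1, AANAT and DDC) were not among the tested probes. OPN4 was bright, with group means of 11.8 to 11.9 in normalised log2 intensity. TH and ASMT were far lower, with group means of 6.34 to 6.64 and 5.97 to 6.02. In LDPS against SDPS, LDPR against LDPS and LDPR against SDPS, TH had log2 fold changes of 0.23, 0.0026 and 0.23. ASMT had -0.11, 0.01 and -0.11 and OPN4 had 0.15, -0.08 and 0.07. TH had an unadjusted p of 0.0372 in LDPS against SDPS and 0.0356 in LDPR against SDPS (adjusted p = 0.9998 and 0.501 by limma). In these comparisons 4.33% and 9.36% of all probes had an unadjusted p under 0.05. In the channel of LDPR pool 2 only 79.3% of all probes lay above the empty-spot level, against 91.6% to 96.6% in the other 11 channels. Its median amplitude was 158, but its empty-spot level was the highest, 62.8 against 20.4 to 51.1 elsewhere. Its ratio of signal to background, 5.12, was the lowest. The array of LDPS pool 3 and LDPR pool 3 was quantified on a different date from the other 5, and as a single array it gives no within-batch test. The pools of an array share the brightness of its spots, so their levels move together, and the tests used the ratio of the pools on each array.

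Among other cell types, the 3 tested red blood cell markers had a median log2 fold change of 0.66 in LDPS against SDPS and -0.80 in LDPR against LDPS, with summed intensities of 6228 to 6996 in SDPS pools, 6136 to 13406 in LDPS pools and 4012 to 5920 in LDPR pools. The 4 tested astrocyte and tanycyte markers had medians of -0.28 and 0.31 in the same comparisons, with sums of 2108 to 2792 in SDPS, 1456 to 2511 in LDPS and 1905 to 2724 in LDPR. The 3 tested oligodendrocyte markers had medians of 0.09 and -0.36, with sums of 2883 to 4515, 3051 to 4885 and 2558 to 3367. The 4 tested pituitary markers had medians of -0.01 and -0.15. Among them FSHB had log2 fold changes of 0.50 and -0.73 and PRL of -0.01 and -0.18. GH1 had -0.01 and -0.12 and POMC had -0.14 and 0.09. FSHB and PRL were each above the empty-spot level in 11 of 12 channels. Summed intensities of the 4 were 2118 to 3583 in SDPS, 2140 to 2881 in LDPS and 1854 to 3351 in LDPR. The 4 tested neuronal markers had medians of 0.05 and -0.07, the 4 of microglia and leukocytes 0.03 and -0.16 (ITGB2 among them 0.60 and -0.76), the 4 of vessels 0.03 and -0.11 and the 3 of choroid plexus and ependyma -0.03 and 0.27, where TTR had 2.33 in LDPR against LDPS. In LDPR against SDPS the medians were -0.09 for red blood cells, 0.03 for astrocytes and tanycytes and -0.25 for oligodendrocytes. For the pituitary, neuronal, microglia and leukocyte, and vessel markers they were -0.16, -0.07, -0.12 and -0.07. For choroid plexus and ependyma the median there was 0.25, and TTR had 1.57. None of these marker probes passed the adjusted threshold, and the part of such cells in the receptor values was not tested.

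Of the 39 receptor probes, 31 lay above the empty-spot level in all 12 channels. The other 8 were CRHR2, FSHR, HCRTR2, MC5R, TACR1, NPFFR2, 1 GHRHR probe (RIGG12678) and the growth hormone-releasing hormone-like peptide receptor probe LOC428397. Each of these 8 was below that level in the channel of LDPR pool 2, where the level was highest. TACR1, the substance P receptor, was usable on 4 arrays and NPFFR2, a receptor for RFamide peptides, on 3, so neither was tested. The 37 tested probes were part of 18012 tested on the whole array. Of all 39, 34 were measured on 6 arrays and 3 (LOC428397, HCRTR2 and NPY1R) on 5.

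No receptor probe passed an adjusted p of 0.05 in any comparison (limma, Benjamini-Hochberg over all 18012 probes). Over all probes the shares called were 0% in LDPS against SDPS, 0.0167% in LDPR against LDPS, 0% in LDPR against SDPS and 0.0111% in the test for any difference among the groups. At an unadjusted p under 0.05 the receptors gave 0 of 37 probes in LDPS against SDPS, where 4.33% of all probes passed. They gave 1 of 37, lower in LDPR, in LDPR against LDPS, where 13.9% of all probes passed. They gave 2 of 37, both lower in LDPR, in LDPR against SDPS, where 9.36% passed, and 1 of 37 in the test for any difference, where 10.7% passed. Among the 34 receptors measured in every pool, 0 had level ranges that did not overlap between the 4 pools of one group and the 4 of another, against 0.985%, 2.15% and 0.979% of all such probes in the same order of comparisons. Tested receptors with a missing pool were left out of the count of ranges, and gaps between groups among them are given below. The counts above are at or under the background shares.

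The receptors' absolute log2 fold changes had medians of 0.0796 in LDPS against SDPS, 0.0805 in LDPR against LDPS and 0.103 in LDPR against SDPS. Over all probes these were 0.0778, 0.1157 and 0.0985. In LDPS against SDPS the receptors' log2 fold changes ran from -0.24 (SSTR5) to 0.15 (TSHR), with 20 above 0 and 17 below. In LDPR against LDPS they ran from -0.30 to 0.18, with 12 above 0 and 25 below, and in LDPR against SDPS from -0.41 to 0.18, again with 12 above and 25 below. Over all probes 48.3% and 46.0% lay above 0 in these comparisons. The count below 0 moved both ways with the arrays used. In LDPR against LDPS it was 20 of 37 without the array of LDPR pool 4 and LDPS pool 4. It was 28 of 36 there on the direct arrays only, and 28 of 37 with the array holding LDPR pool 2 left out. In LDPR against SDPS it was 19 of 37 on the direct arrays only, and 28 of 37 without the array holding LDPR pool 2. The medians of the signed values were 0.0053, -0.06 and -0.06, against -0.01 in each comparison over all probes. Both comparisons with LDPR use the same LDPR pools, so their shared direction is not a repeat.

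The 95% interval of the log2 fold change lay within 1 in either direction, a 2-fold change, for 37 of 37 receptors in each comparison. So did 99.8%, 99.5% and 99.5% of all probes in LDPS against SDPS, LDPR against LDPS and LDPR against SDPS. Intervals within 0.5 (a 1.41-fold change) were reached by 34, 34 and 30 of 37, against 91.0%, 79.6% and 83.1% of all probes. These intervals are not adjusted for the number of probes, and the bounds were chosen after the values were seen. Turkey RNA was read with chicken probes, and how fully their signal tracks the turkey transcripts was not tested, so the intervals describe the probes' signal. Without the array of LDPR pool 4 and LDPS pool 4, 1 receptor passed the 2-fold bound in LDPR against LDPS (NPY1R at 0.61, interval to 1.20).

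**Figure D1:**
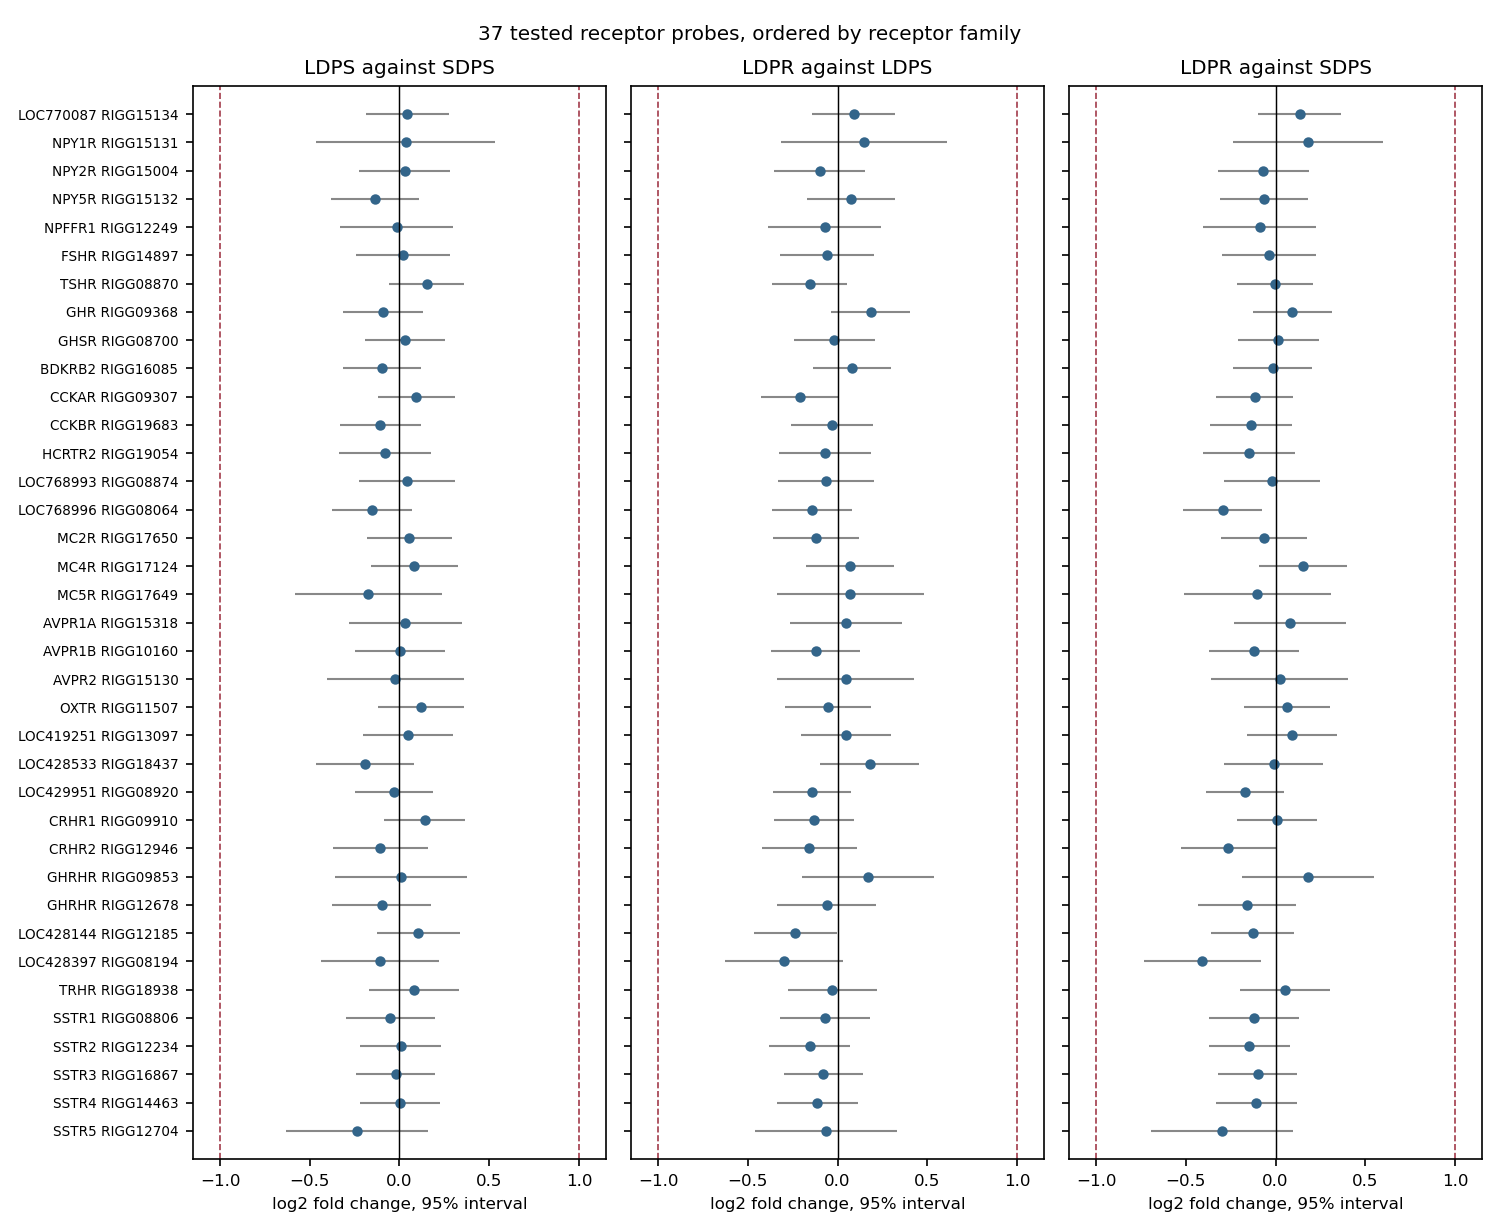
Log2 fold changes (points) with 95% intervals (lines) of the 37 tested receptor probes in the 3 comparisons, ordered by receptor family, with dashed lines at a 2-fold change. All intervals lie between the dashed lines, as do 99.5% to 99.8% of those of all tested probes, and 3 of 111 leave out 0.

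The 8 receptors described pool by pool were the 3 with an unadjusted p under 0.05 in a comparison and the next 5 by the test for any difference. The tachykinin receptor 2-like probe LOC768996 (RIGG08064) stands for the receptor that in mammals binds neurokinin A and couples to Gq. Its levels, as normalised log2 intensity, were 6.89, 7.30, 7.40 and 7.16 in SDPS pools 1 to 4, 6.95, 7.05, 6.99 and 7.70 in LDPS pools 1 to 4, and 7.28, 6.57, 7.03 and 7.50 in LDPR pools 1 to 4. The groups overlapped, LDPR pool 2 was lowest and LDPS pool 4 was highest, with its array mate LDPR pool 4 next. On the arrays that held LDPR beside SDPS, the log2 ratio of LDPR to SDPS was -0.12 and -0.59. The fitted log2 fold change in LDPR against SDPS was -0.30 (SE 0.10, unadjusted p = 0.0143, adjusted p = 0.451 by limma), which did not pass. It was -0.21 (unadjusted p = 0.113 by limma) without the array of SDPS pool 4 and LDPR pool 2, the channel of highest empty-spot level.

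LOC428397 (RIGG08194) was described as similar to a receptor for growth hormone-releasing hormone-like peptide. It had the lowest fitted log2 fold change of any tested receptor, in LDPR against SDPS. Its levels were 6.09, 6.07, 6.13 and 6.03 in SDPS pools 1 to 4, 6.14, 6.07 and 5.68 in LDPS pools 1 to 3, and 5.84, 5.24 and 5.86 in LDPR pools 1 to 3. LDPS pool 4 and LDPR pool 4 shared an array whose spot was left out for low confidence. All 3 measured LDPR pools lay below all 4 SDPS pools, while LDPS overlapped both. The share of all probes with such a gap when pools are missing was not counted. The fitted log2 fold change in LDPR against SDPS was -0.41 (SE 0.14, unadjusted p = 0.0204, adjusted p = 0.466 by limma) on 5 arrays, with direct ratios of -0.29 and -0.79. The larger ratio came from LDPR pool 2, whose amplitude of 41.5 was under the empty-spot level of 62.8, and the value without that array was -0.12. It was -0.51 with the array that paired LDPS pool 2 with SDPS pool 2 left out and -0.54 without that of LDPS pool 3 and LDPR pool 3. With all spots kept whatever their confidence it was -0.27 (unadjusted p = 0.115 by limma). With all arrays kept and loess fitted within each print block it was -0.11. The size of this difference thus changed with the arrays used, the spot filter and the normalisation.

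LOC428144 (RIGG12185) was described as similar to thyrotropin-releasing hormone receptor 3, a relative of the Gq-coupled receptor by which that tripeptide acts on pituitary cells and neurones. Its levels were 8.14, 7.57, 8.50 and 8.06 in SDPS pools 1 to 4, 8.03, 7.82, 7.69 and 8.13 in LDPS, and 8.02, 8.34, 7.05 and 8.24 in LDPR. The groups overlapped throughout, and LDPR pool 3 was lowest. Its spot was brighter in Alexa 555 than in Alexa 647 on 6 of 6 arrays, with a mean log2 ratio of Alexa 647 to Alexa 555 of -0.31. The fitted log2 fold change in LDPR against LDPS was -0.23 (SE 0.10, unadjusted p = 0.0469, adjusted p = 0.349 by limma). The 2 direct arrays, with the dyes reversed, gave -0.64 and 0.11. These ratios still carry the probe's dye difference, which the dye term of the fit takes out. Without the array of LDPS pool 3 and LDPR pool 3, quantified on a different date, the fitted value was -0.17 (unadjusted p = 0.268 by limma). The same dye was brighter on all 6 arrays for 5 of 34 receptors (LOC428144, MC2R, LOC768993, GHSR and SSTR4), or 14.7%, and for 13.5% of all probes.

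CRHR2 (RIGG12946), a Gs-coupled receptor for urocortins and corticotropin-releasing hormone, had levels of 6.01, 6.24, 6.33 and 6.25 in SDPS pools 1 to 4, 6.05, 6.24, 6.02 and 6.18 in LDPS, and 6.10, 5.70, 5.90 and 6.23 in LDPR. The LDPR pools 2 and 3 were the lowest of the 12, and pools 1 and 4 lay among the other groups. The log2 fold change in LDPR against SDPS was -0.26 (SE 0.12, adjusted p = 0.534 by limma), and it was -0.10 without the array of LDPR pool 2, where CRHR2 was also under the empty-spot level. CRHR1 (RIGG09910), the main receptor for corticotropin-releasing hormone in pituitary corticotrophs, had values of 0.14 in LDPS against SDPS, -0.13 in LDPR against LDPS and 0.01 in LDPR against SDPS.

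CCKAR (RIGG09307), the cholecystokinin receptor that carries satiety signals in mammals, had levels of 8.35, 8.49, 8.21 and 8.36 in SDPS pools 1 to 4, 8.54, 8.42, 8.37 and 8.28 in LDPS, and 8.24, 8.18, 8.34 and 7.83 in LDPR. LDPR pool 4 was lowest, and LDPR pool 3 lay inside the range of LDPS. The log2 fold change in LDPR against LDPS was -0.21 (SE 0.10, adjusted p = 0.366 by limma) with direct ratios of -0.04 and -0.45. It was -0.15 (unadjusted p = 0.291 by limma) without the array of LDPR pool 4 and LDPS pool 4. In the fit with a replicate block it was -0.25 (adjusted p = 0.0529 by limma). CCKBR (RIGG19683), the gastrin and cholecystokinin receptor common in brain, had -0.03 in that comparison.

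LOC429951 (RIGG08920), described as a delta opioid receptor-like protein, is named for the Gi-coupled receptor of enkephalins. Its levels were 9.00, 8.27, 8.12 and 8.72 in SDPS pools 1 to 4, 8.99, 8.10, 8.57 and 7.77 in LDPS, and 8.12, 8.49, 8.47 and 7.47 in LDPR. The highest levels were those of array mates SDPS pool 1 and LDPS pool 1, and the lowest those of array mates LDPS pool 4 and LDPR pool 4. The log2 fold change in LDPR against SDPS was -0.17 (SE 0.10, adjusted p = 0.604 by limma).

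TSHR (RIGG08870), the Gs-coupled receptor for thyrotropin, takes part in quail in the long-day response of cells lining the third ventricle. Its levels were 7.24, 7.34, 6.76 and 7.34 in SDPS pools 1 to 4, 7.52, 7.40, 7.15 and 7.96 in LDPS, and 6.91, 7.15, 7.18 and 7.66 in LDPR. The groups overlapped, with LDPS pool 4 highest and SDPS pool 3 lowest. Its log2 fold change was 0.15 in LDPS against SDPS (SE 0.09, interval -0.06 to 0.36), -0.16 in LDPR against LDPS (SE 0.09, interval -0.37 to 0.05) and -0.0038 in LDPR against SDPS, and no value passed. On the direct arrays of LDPS and SDPS the ratios were 0.28 and 0.05.

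GHR (RIGG09368), the growth hormone receptor, had levels of 7.56, 7.86, 7.67 and 7.35 in SDPS pools 1 to 4, 7.35, 7.88, 7.31 and 7.38 in LDPS, and 7.50, 7.72, 7.38 and 7.66 in LDPR. LDPS pool 2 and its array mate SDPS pool 2 were the highest pools. The log2 fold change in LDPR against LDPS was 0.18 (SE 0.10, adjusted p = 0.434 by limma), the highest of any receptor in that comparison, with direct ratios of 0.07 and 0.28.

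**Figure D2:**
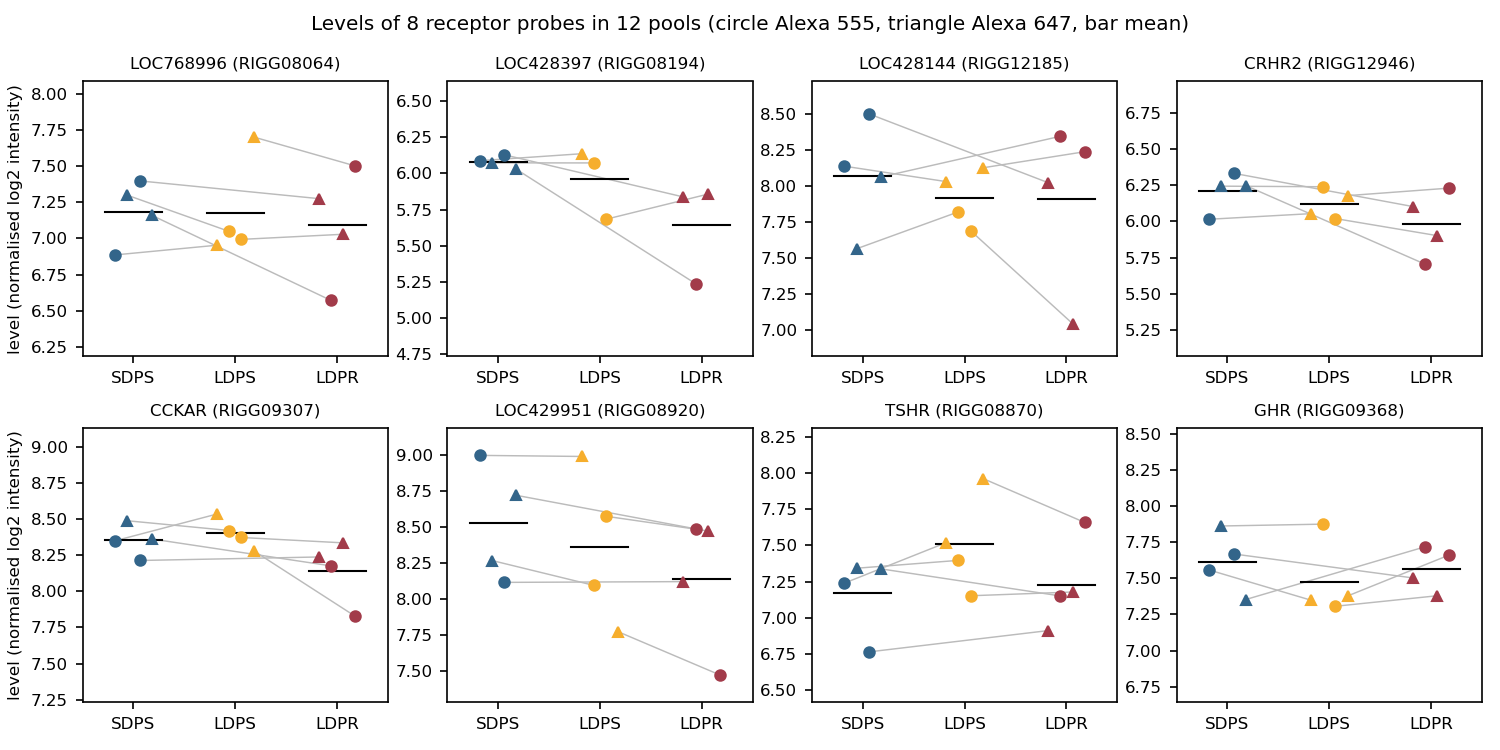
Levels (normalised log2 intensity) of 8 receptor probes in the 4 pools of each group. Circles were labelled with Alexa 555 and triangles with Alexa 647, bars are group means and grey lines join the pools of 1 array. Groups overlap in 7 of the 8 panels, and for LOC428397 the 3 measured LDPR pools lie below the SDPS pools. The lowest of these LDPR levels came from an amplitude of 41.5, under its channel's empty-spot level of 62.8. The share of all probes with such a gap when pools are missing was not counted.

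**Figure D3:**
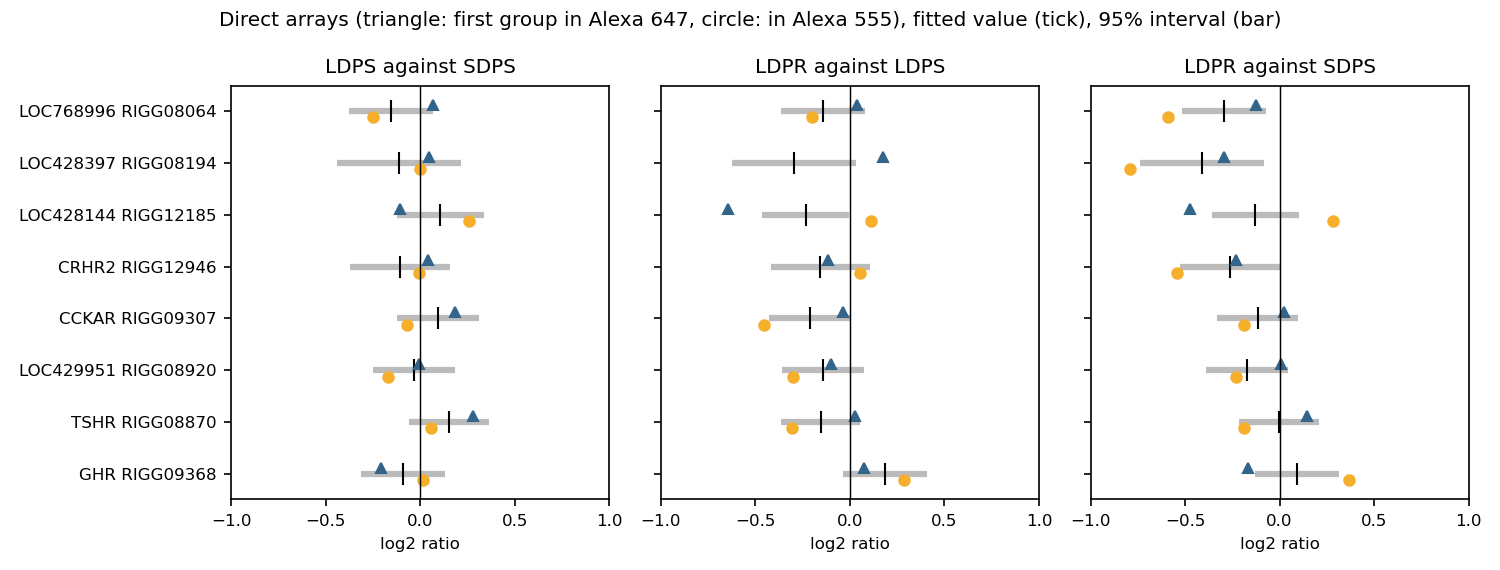
For the same 8 probes, the log2 ratio on each of the 2 arrays that held both groups of a comparison (triangle with the first group in Alexa 647, circle with it in Alexa 555), the fitted log2 fold change (tick) and its 95% interval (bar). The direct arrays of LOC428144 fall on opposite sides of 0 in all 3 comparisons. Direct ratios carry a probe's dye difference, which the fitted values take out, and LOC428144 was brighter in Alexa 555 on 6 of 6 arrays.

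The releasing hormone receptors further held GHRHR, by which growth hormone-releasing hormone acts on pituitary somatotrophs, and TRHR, the classical thyrotropin-releasing hormone receptor. The 2 GHRHR probes did not have the same sign in LDPR against SDPS, with 0.18 (SE 0.16) for RIGG09853 and -0.16 (SE 0.12) for RIGG12678, and the second was under the empty-spot level in LDPR pool 2. Where 3 log2 fold changes are given for a gene, they are those of LDPS against SDPS, LDPR against LDPS and LDPR against SDPS in that order. TRHR (RIGG18938) had 0.08, -0.03 and 0.05, with all 12 levels between 6.61 and 7.02. That was a narrow spread beside the median range of 0.87 over the tested receptors.

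Among the somatostatin receptors, the Gi-coupled receptors through which somatostatin inhibits hormone release, all 5 values were below 0 in LDPR against LDPS (-0.15 to -0.06) and in LDPR against SDPS (-0.30 to -0.10), and 0 passed even the unadjusted threshold. The lowest was SSTR5 (RIGG12704) at -0.30 in LDPR against SDPS (SE 0.18, interval -0.69 to 0.10). It became -0.11 when the array that paired SDPS pool 1 with LDPS pool 1 was left out and -0.14 without that of LDPR pool 4 and LDPS pool 4, but -0.47 without that of SDPS pool 3 and LDPR pool 1 and -0.56 in the fit with a replicate block. In LDPS against SDPS its direct ratios were -0.88 and 0.06. SSTR3 (RIGG16867) had the narrowest range of level among the tested receptors, 8.63 to 9.00, and changes of -0.02, -0.08 and -0.10. SSTR2 had 0.01, -0.15 and -0.15 and SSTR4 had 0.01, -0.11 and -0.11. Both comparisons use the same LDPR pools, and 25 of all 37 tested receptors were below 0 in each of them. Over the alternative fits, SSTR1 ran from -0.21 to 0.12 in LDPR against LDPS and from -0.24 to 0.27 in LDPR against SDPS. SSTR5 ran from -0.25 to 0.25 in LDPR against LDPS. SSTR2, SSTR3 and SSTR4 stayed below 0 in these comparisons, as did SSTR5 in LDPR against SDPS.

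SSTR1 (RIGG08806) had the widest range of level, 3.10 on the log2 scale. Its levels were 6.55, 6.89, 7.53 and 6.94 in SDPS pools 1 to 4, 6.76, 6.81, 6.66 and 9.58 in LDPS, and 7.39, 6.60, 6.69 and 9.65 in LDPR. The high values were those of the pools that shared an array, LDPS pool 4 and LDPR pool 4, with amplitudes of 1178 and 1272 against 65.3 to 146 elsewhere. Both dyes were bright on that spot, and the log2 ratio of LDPR to LDPS there was 0.07. The fits use ratios, so the fitted values of -0.05, -0.07 and -0.12 do not carry the shared brightness. They do include that spot's ratio.

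**Figure D4:**
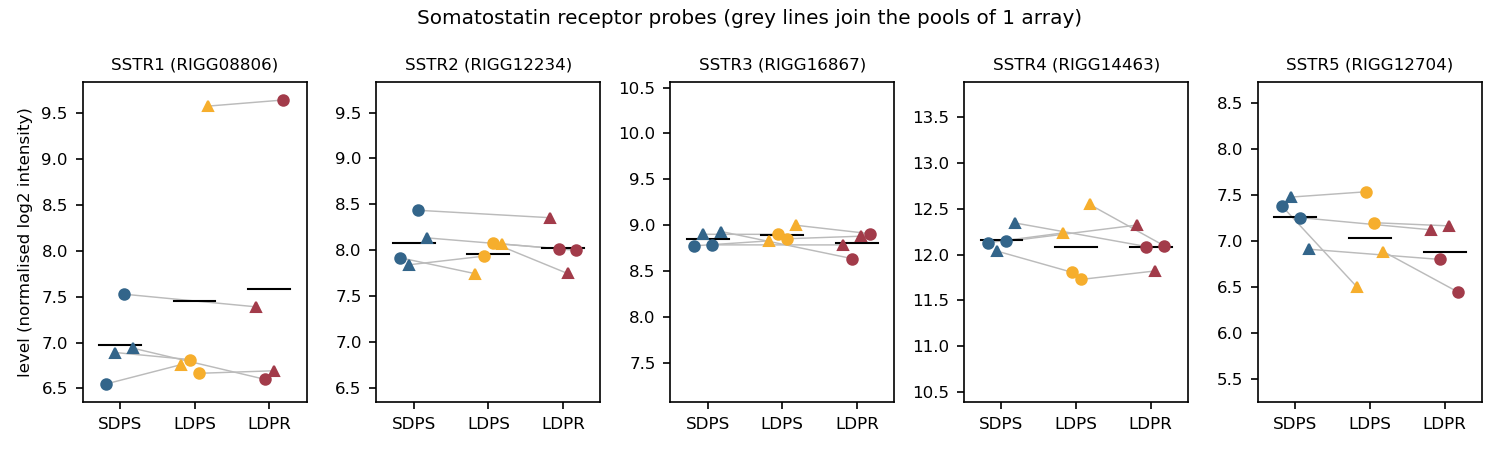
Levels (normalised log2 intensity) of the 5 somatostatin receptor probes by group, drawn to the same height of scale, with circles for Alexa 555, triangles for Alexa 647, bars for group means and grey lines for pools of 1 array. SSTR1 is at 9.58 and 9.65 in the pools of 1 array and between 6.55 and 7.53 in the other 10 pools.

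The receptors for the neurohypophysial hormones bind vasotocin and mesotocin in birds, and the array names them after the mammalian vasopressin and oxytocin. AVPR1A (RIGG15318) had 0.03, 0.05 and 0.08, and OXTR (RIGG11507) had 0.12, -0.05 and 0.07. AVPR1B had 0.0021, -0.12 and -0.12, and AVPR2 had -0.02, 0.05 and 0.02, each with SE between 0.11 and 0.17. The level ranges of the groups overlapped for all 4.

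The melanocortin receptors are Gs-coupled receptors for peptides cut from POMC. MC4R (RIGG17124), the receptor through which these peptides reduce feeding, had 0.08, 0.07 and 0.15, with an interval of -0.09 to 0.40 in LDPR against SDPS. MC2R, the adrenal corticotropin receptor, had 0.06, -0.12 and -0.06. MC5R had -0.17, 0.07 and -0.10 with the larger SE of 0.18, and was under the empty-spot level in LDPS pool 2 and LDPR pool 2. MC2R and MC5R neighbour each other in the turkey annotation, as do NPY1R and NPY5R.

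Of the neuropeptide Y receptors, Gi-coupled receptors tied to feeding, NPY2R had 0.03, -0.10 and -0.07. NPY1R (RIGG15131), measured on 5 arrays, had 0.04, 0.15 and 0.18 with SE up to 0.22, and its direct ratios of LDPR to SDPS were -0.23 and 0.99. The NPY5R probe had -0.14, 0.07 and -0.06 and a second probe described as similar to the Y5 receptor, LOC770087, had 0.04, 0.09 and 0.13. The pair differed in sign in 2 of the 3 comparisons, and their difference was not tested.

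The remaining opioid-type probes were a kappa-like receptor, LOC428533, and an ORL1-like receptor, LOC419251, named for the receptor of nociceptin. LOC428533 had -0.19, 0.18 and -0.01 (SE 0.12) and LOC419251 had 0.05, 0.05 and 0.09 (SE 0.11). HCRTR2, an orexin receptor known for its part in wakefulness, had -0.08, -0.07 and -0.15 (SE 0.11). Its 3 measured LDPR levels, 5.49 to 5.71, lay below the 3 measured LDPS levels, 5.77 to 6.23, and overlapped the SDPS levels, 5.65 to 6.35, with LDPR pool 2 under the empty-spot level. The share of all probes with such a gap when pools are missing was not counted. The neuromedin K receptor-like probe LOC768993 had 0.04, -0.06 and -0.02, BDKRB2, a bradykinin receptor, had -0.10, 0.08 and -0.02, and GHSR, the ghrelin receptor, had 0.03, -0.02 and 0.01.

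Of 59 listed peptide and hormone genes 22 were on the array by symbol and 21 were tested. The called ligand was GAL, galanin, with 1.19 in LDPR against LDPS (adjusted p = 0.0129 by limma), and no other passed in any comparison. Ligand medians were -0.08, 0.05 and 0.04. At the unadjusted threshold 2 ligands were higher and 3 lower in LDPS against SDPS, 5 higher and 3 lower in LDPR against LDPS and 2 higher and 2 lower in LDPR against SDPS, where 4.33%, 13.9% and 9.36% of all probes passed. NPVF, the precursor of gonadotropin-inhibitory hormone, had -0.74, 1.09 and 0.35 (SE 0.23), and NPFFR1 (RIGG12249), which binds that hormone in birds, had -0.02, -0.07 and -0.09 (SE 0.14). In LDPR against LDPS the adjusted p of NPVF was 0.148 by limma. The interval of NPFFR1 there was -0.39 to 0.24, which is unadjusted and describes the probe's signal.

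TRH had -0.04, 0.49 and 0.45 (SE 0.13) beside the TRHR values above, and its adjusted p was 0.183 in LDPR against LDPS and 0.411 in LDPR against SDPS by limma. FSHB, the beta chain of follicle-stimulating hormone, had 0.50, -0.73 and -0.24, while its receptor FSHR (RIGG14897) had 0.02, -0.06 and -0.04 (SE 0.12). FSHB is a pituitary gene, and the pituitary markers are given above. Its probe exceeded the empty-spot level in 11 of 12 channels. POMC had -0.14, 0.09 and -0.05, AVP had -0.08, 0.13 and 0.05, OXT had 0.07, 0.03 and 0.10 and PENK, the enkephalin precursor, had -0.17, 0.25 and 0.08. Differences between a ligand and its receptor were not tested.

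**Figure D5:**
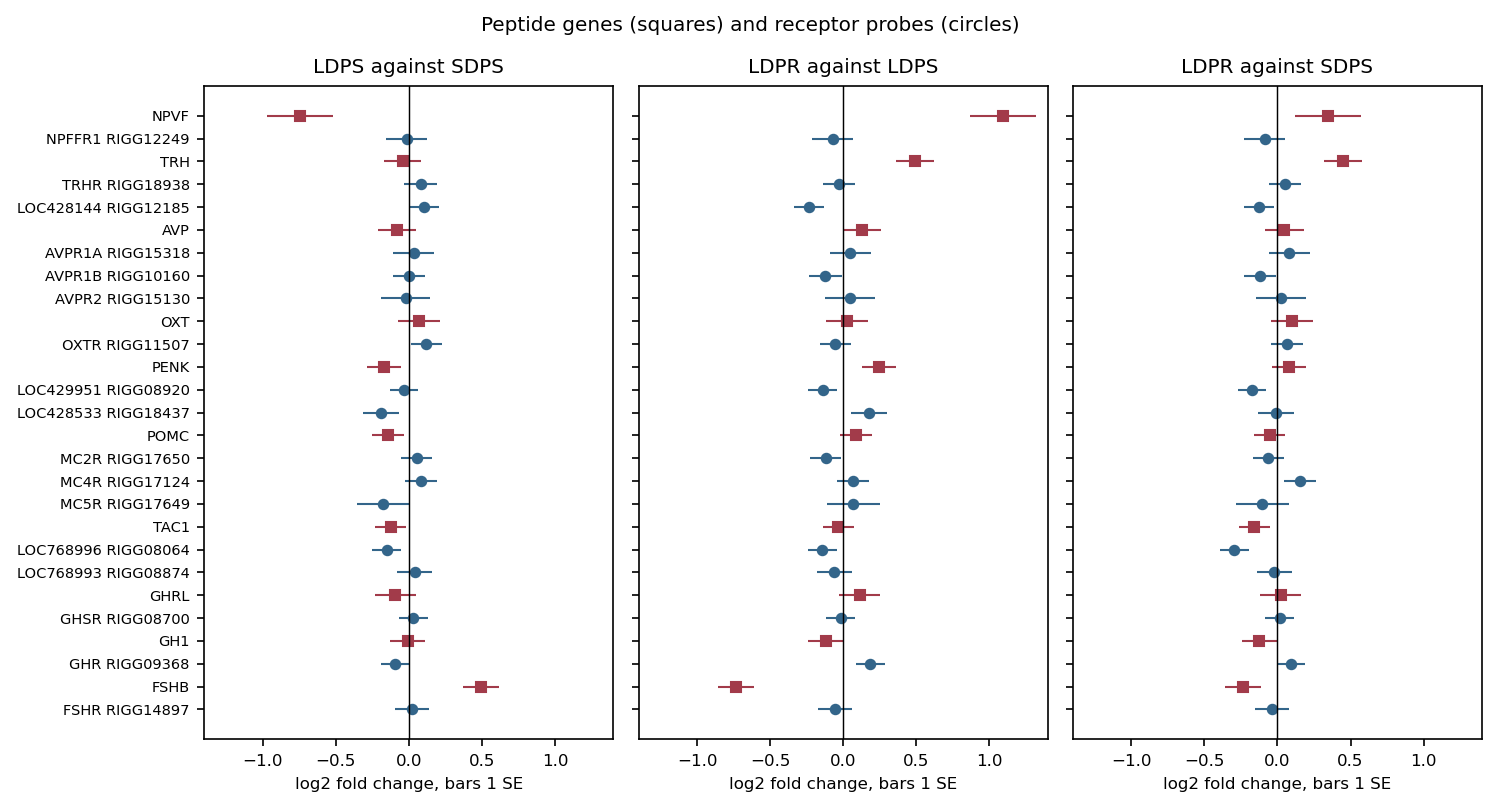
Log2 fold changes with bars of 1 SE for 10 tested ligand genes (squares) and the receptor probes listed under each (circles) in the 3 comparisons. NPVF, TRH and FSHB lie away from 0 in LDPR against LDPS. The receptors listed under them run from -0.23 (LOC428144, SE 0.10) to -0.03 (TRHR, SE 0.11). Differences between a ligand and its receptor were not tested. The FSHB probe exceeded the empty-spot level in 11 of 12 channels.

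Downstream of the receptors, 25 of 63 listed G protein signalling genes were tested, with 0 called in each comparison and medians of -0.06, 0.05 and -0.03. At the unadjusted threshold 0 of 25 passed in LDPS against SDPS, where 4.33% of all probes passed. In LDPR against SDPS 2 of 25 were higher and 1 lower, where 9.36% of all probes passed. In LDPR against LDPS 4 of 25 were higher and 0 lower, where 13.9% passed. Those 4 were GRK4, a kinase that desensitises receptors, with 0.38, GNAI1, an inhibitory alpha subunit, with 0.32, PRKACB, a catalytic subunit of the cyclic AMP-dependent kinase, with 0.30, and GNB1, a beta subunit, with 0.25. Of 18 listed genes that cut or process peptides 8 were tested and 0 called, with medians of -0.04, 0.11 and 0.05. CPE, carboxypeptidase E, which trims peptide precursors, had -0.24, 0.32 and 0.08. It was the 1 gene of these 8 past the unadjusted threshold in LDPR against LDPS. In LDPS against SDPS 2 of the 8 passed it, both lower (CPE, and SCGN with -0.27), where 4.33% of all probes passed. In LDPR against SDPS 1 of the 8 passed it, higher (CHGB with 0.26), where 9.36% passed. The lists were described by counts and medians, single genes were named for their values, and no list was tested as a set.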

How the data were processed

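Total RNA of 12 pools was hybridised in pairs to 6 arrays of chicken oligonucleotides. Spot intensity, 1 amplitude per spot and channel, was deposited by the authors without normalisation or a background column. Per the file headers it came from BlueFuse for Microarrays 3.6 (build 7145). The deposited confidence score grades each spot, and spots with a score under 0.1 were treated as missing. A value table deposited by the authors gives log2 intensity for each pool, with column medians of 7.434 to 7.578, and no source used here states its normalisation. It served as an alternative, after its differences between array mates were found to correlate at 0.931 to 0.994 with those of the amplitudes. Each array's data came in a pair of identical files, of which 1 was read.

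Log2 ratios were normalised by loess within arrays (span 0.3, 4 iterations, empty and control spots at weight 0) and fitted with limma 3.58.1 in R 4.3.3, with terms for the 3 groups and the dye. Probes on at least 5 arrays were tested, two-sided, with 2 to 3 residual and 6.64 prior degrees of freedom, and adjusted over all 18012 by Benjamini-Hochberg at a threshold of 0.05. Pool levels are loess-normalised and quantile-scaled log2 intensities and carry the brightness of the array's spot. Between receptors only the ranges of level were compared, and these carry that brightness too. The labels call the pools of a group biological replicates, and the p-values measure how pools and arrays spread; the number of arrays limits the precision.

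The receptors and all lists (ligands, G protein signalling, peptide processing, cell markers) were chosen with earlier results of these data known. Pool levels are given for receptors with an unadjusted p under 0.05, made up to 8 by the lowest p for any difference, and other receptors by fold change. A listed gene was represented by its brightest tested probe. Names are those of the array design. Of 30 receptor symbols, 26 were found in the turkey annotation Turkey_5.1, while 8 receptors had only a locus number. No source used here names a build for the array's probes, so no positions are printed. Alternatives changed the spot filter, the normalisation, the dye term, the arrays used and the source of the values.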

Additional observations from a re-analysis of the deposited data

Results flagged for a closer look

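In 6 of 105 groups of 4 pools, 1 pool's receptor level stood apart from the other 3, by a gap that took more of the group's range than Dixon's test allows at the 95% level. Chance flags about 1 in 20 groups, and a level carries the brightness of its array's spot. LOC768996, the tachykinin receptor 2-like probe, was 7.70 in LDPS pool 4 and 6.95 to 7.05 in the other LDPS pools. SSTR1 was 9.58 in the same LDPS pool 4 and 6.66 to 6.81 in the others, and the array mate LDPR pool 4 was at 9.65. GHR was 7.88 in LDPS pool 2 and 7.31 to 7.38 in the others. The GHRHR probe RIGG09853 was 9.83 in LDPR pool 3, on the array quantified on a different date, and 10.85 to 10.93 in the others. MC5R was 5.36 in SDPS pool 2 and 5.72 to 5.80 in the others. TRHR was 6.84 in LDPR pool 2, the channel of highest empty-spot level, and 6.67 to 6.69 in the others. The part of spot brightness in these values was not tested.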

How the results depend on the processing

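The count of receptors past an adjusted p of 0.05 (limma) was 0 in all 3 comparisons and in the test for any difference under each alternative run. The range with 1 array left out was 0 to 0, and the fit of separate channels with a replicate block gave 0. The lowest adjusted p of any receptor was 0.349 in the fit as reported, 0.0529 with the replicate block and between 0.122 and 0.998 under the other alternatives. The 0.0529 was that of CCKAR in LDPR against LDPS, where the block fit called 1321 of 16748 probes. The 8 same-numbered pairs of pools on different arrays correlated at -0.334 to 0.125, and array mates at 0.54 to 0.812. Pairs that shared neither number nor array ran from -0.62 to 0.609. Array mates share spot brightness, so these correlations cannot decide whether pool numbers pair samples. Counts at an unadjusted p under 0.05 moved more, with 1 array left out giving 0 to 2 in LDPS against SDPS, 0 to 3 in LDPR against LDPS and 0 to 5 in LDPR against SDPS, while the shares of all probes ran from 2.49% to 9.33%, 6.44% to 14.5% and 5.57% to 15.8%. The replicate block gave 4, 3 and 5 of 34 receptors and 12.3%, 25.4% and 13.7% of all probes. The block fit could use only probes on 6 arrays. The planned filter on dim probes removed 0 tested probes, so a stricter one (above empty spots in all 12 channels) was chosen after seeing the data and left 31 receptors with 0 called. The sign of the fold change held under all alternatives that could be fitted for 14 of 37 receptors in LDPS against SDPS, 19 in LDPR against LDPS and 17 in LDPR against SDPS. Intervals passed the 2-fold bound under 5 alternatives, for at most 2 receptors each. The channel of LDPR pool 2 limits the 6 tested receptors that it held under its high empty-spot level, and its array enters the fits of the other receptors too.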
